A study of Mus musculus with 2 samples.

Results

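The genes described here are 44 transcription factor genes of endocrine differentiation, of gut patterning and of the balance between Notch signalling and Id proteins. They were taken by name from a fixed list, and all 44 were found among the 37681 gene identifiers counted in both libraries. Both libraries were made from epithelium of the stomach corpus, where acid is made, in mice of strain C57BL/6. All of the mice were Hdc-CFP transgenic, so a fluorescent reporter marked cells that use Hdc, whose product histidine decarboxylase forms histamine. The first group was 1 library of cells sorted as Hdc-CFP+ (the CFP+ library), and the other 1 library of corpus epithelial cells after depletion of Hdc-CFP cells (the CFP-depleted library). The stated aim was to trace the origin of Hdc-expressing cells. The labels do not give the age or the number of the mice, or say whether several were pooled. The sort rests on 1 transgene, so it selects any cell in which that transgene is on.

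Endocrine cells of the gut arise from progenitors in which a short pulse of the basic helix-loop-helix (bHLH) factor Neurog3 switches on Neurod1, Insm1, Pax, Nkx, Isl and Rfx factors. Some of these stay on in mature cells and keep hormone and granule genes active. Notch signalling holds neighbouring cells back through the repressor Hes1, and Id proteins do so by binding E proteins, the bHLH partners of the proneural factors. A further group, including Pdx1, Cdx1, Cdx2 and Barx1, marks position along the gut.

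No group had a replicate, so no p-value is given, and what follows compares these libraries only. Levels are normalised CPM, counts scaled to library size with trimmed-mean factors. Brackets hold exact 95% intervals for counting error. A gene was measured if either library had at least 10 counts of it. It is called higher or lower if its level in the CFP+ library differed at least 2-fold from that in the CFP-depleted library and the interval excluded 1. Up to 3 counts are allowed by a count of 0, equal to 0.246 CPM in the CFP+ and 0.0668 CPM in the CFP-depleted library. In such bulk samples fewer cells of a type and less RNA per cell cannot be told apart.

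The CFP+ library held 10736538 counts in genes and the CFP-depleted library 50928524. Hdc was 413-fold [388 to 441] higher and Chga, the gene of the granule protein chromogranin A, 391-fold [382 to 400.4] higher in the CFP+ library. Markers of other cells differed as well. Macrophage markers summed to 9.61 CPM in the CFP+ and 2161 CPM in the CFP-depleted library, with 6 of 6 lower. Surface mucous markers were lower in 3 of 3 measured cases, parietal markers in 4 of 4 and chief and neck markers in 4 of 5. Among pancreatic acinar genes 7 of 8 measured were higher and 1 lower, with a sum of 9948 CPM in the CFP+ and 146 CPM in the CFP-depleted library and Cpa1 at 0 in both. Of 8 islet markers 2 were measured and both were higher, but Ins1, Ins2 and G6pc2 were at 0 counts in both libraries and the list summed to 4.02 CPM in the CFP+ and 0.379 CPM in the CFP-depleted library. Of 10 marker genes of other gut endocrine cells, mostly hormone genes, 8 were measured, with 6 higher and 0 lower. Ghrl (ghrelin) was 9.55-fold [9.39 to 9.70] and Sst (somatostatin) 8.17-fold [7.86 to 8.48] higher. Gip, at a ratio of 0.369 [0.0720 to 1.19], and Sct, at 1.84 [0.568 to 5.31], had no call. Mast cells also use Hdc, and their markers were higher in 5 of 7 cases, with sums of 225 CPM in the CFP+ and 83.5 CPM in the CFP-depleted library. Tuft cell markers were lower in 4 of 5. The part of these other cells in the results below was not tested unless a value is given.

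Of the 44 genes 30 were measured and 14 were not. In the CFP+ library 18 of the 30 were higher and 4 lower, while 8 met neither rule. Over all 16682 measured genes, 21.9% were higher and 21.9% lower by the same rule. Scaled by total count alone, 20 members were higher and 3 lower, with 28.4% of all measured genes higher and 16.7% lower. At 10-fold or more 14 members were higher, against 8.70% of all measured genes, and at 100-fold or more 8 members, against 2.33%. The median log2 ratio of the measured members was 2.65, beside -0.05 over all measured genes. Nkx2-2, Pax6, Lmx1a, Lmx1b and Fev were measured only through the CFP+ library, the smaller one, so for these 5 genes a difference was nearly built in. All 5 are among the 18 higher members and the 14 at 10-fold, and Lmx1b and Fev are among the 8 at 100-fold. This route held for 5 of 30 members but for 799 of all 16682 measured genes, so the shares above are not on an equal footing. Barx1 was measured only through the CFP-depleted library, where the greater depth builds in no such difference.

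**Figure D1:**
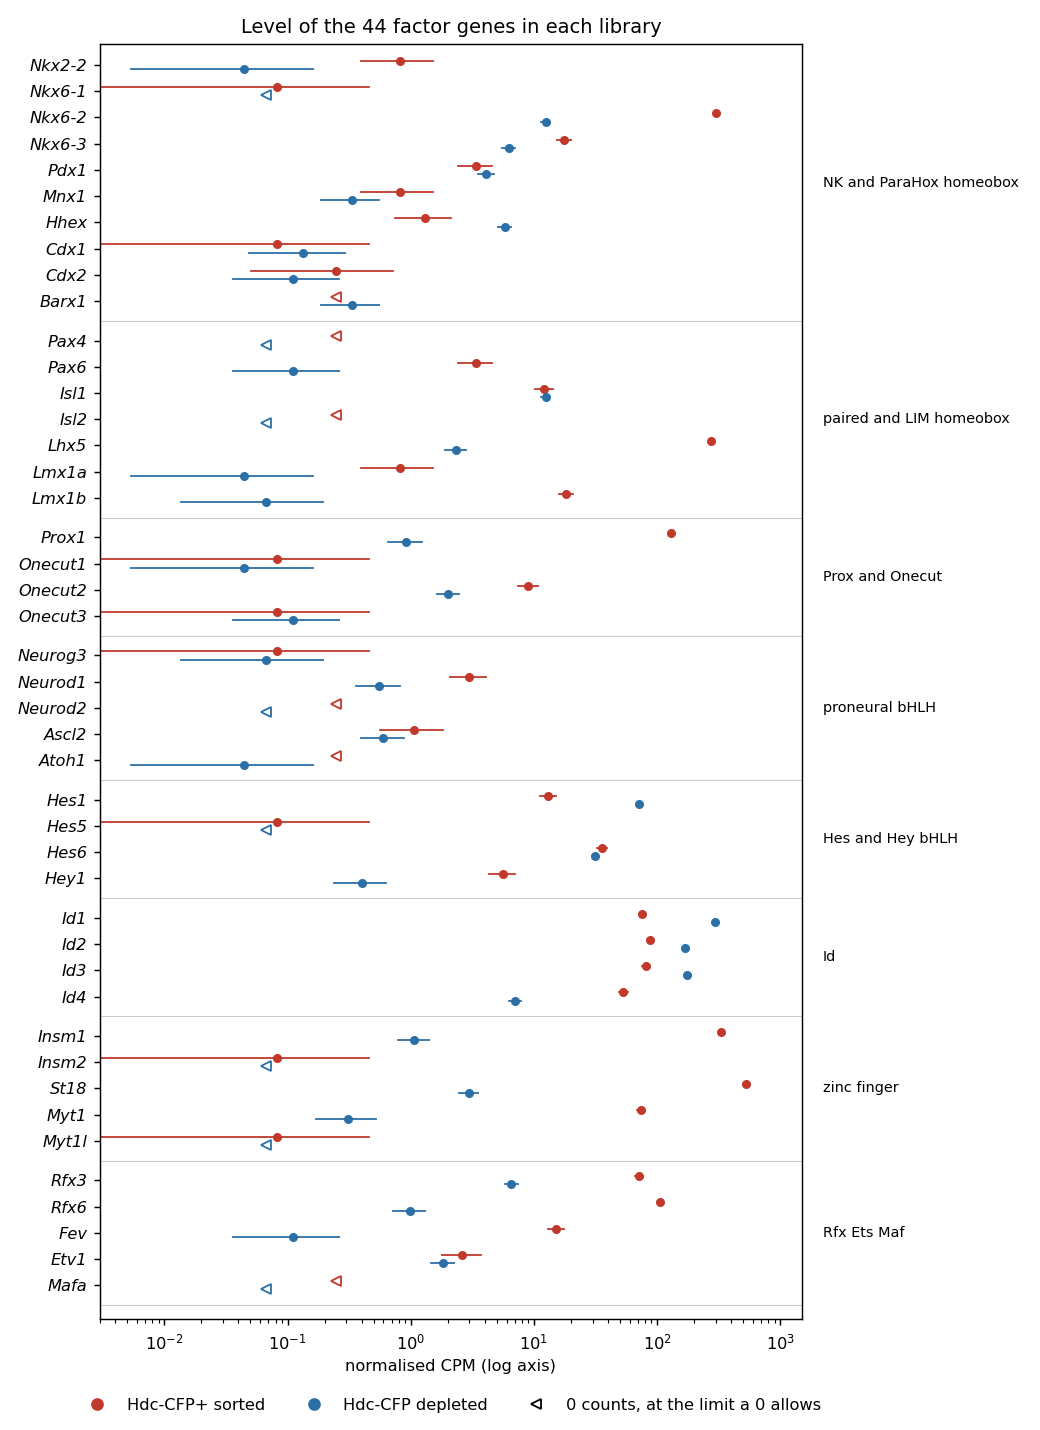
Normalised CPM (log axis) of each of the 44 genes, by family, in the Hdc-CFP+ sorted library (red, upper of each pair) and the Hdc-CFP depleted library (blue). Lines are exact 95% Poisson intervals and open triangles stand at the limit that a count of 0 allows. Lines at the left edge go on beyond it. Insm1, St18, Myt1, Lhx5, Lmx1b, Prox1, Rfx6 and Fev lie far to the right in the sorted library, and Id1 and Hes1 lie further right in the depleted one.

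The promoters of 6 of these genes are shown because the genes cover the range seen: Prox1, Rfx6 and Fev were over 100-fold higher, Nkx6-2 and Id4 were higher by smaller amounts, and Id3 was lower. Each is the 250 bases before the annotated start, 5′ to 3′ on the strand of the gene, from RefSeq on GRCm38.p6 (the counts were made on mm9, and no coordinates were converted). Capitals mark matches, on either strand, to TGGGAA (the core bound by RBPJ, the DNA-binding protein of the Notch pathway), CACNAG (the N box of Hes repressors), CAGATG (an E box of the NeuroD type), GTTGCC (part of the X box of Rfx factors) and GGCGCC (a GC-rich element bound by SMAD proteins). Matches do not overlap in these sequences. The regions are chr1:190170828-190171077 (minus strand) for Prox1, chr10:51685268-51685517 (plus) for Rfx6, chr1:74885409-74885658 (minus) for Fev, chr7:139582798-139583047 (minus) for Nkx6-2, chr13:48260866-48261115 (plus) for Id4 and chr4:136143572-136143821 (plus) for Id3.
Prox1: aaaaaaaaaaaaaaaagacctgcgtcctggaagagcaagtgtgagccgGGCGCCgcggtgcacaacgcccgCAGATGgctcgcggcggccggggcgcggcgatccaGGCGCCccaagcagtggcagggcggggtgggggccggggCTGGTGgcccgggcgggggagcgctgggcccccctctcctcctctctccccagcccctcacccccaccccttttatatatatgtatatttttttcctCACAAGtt
Rfx6: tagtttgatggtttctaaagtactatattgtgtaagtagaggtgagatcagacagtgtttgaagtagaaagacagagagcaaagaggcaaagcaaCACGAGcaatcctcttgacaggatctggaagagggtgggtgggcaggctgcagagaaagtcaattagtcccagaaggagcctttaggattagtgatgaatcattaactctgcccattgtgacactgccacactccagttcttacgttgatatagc
Fev: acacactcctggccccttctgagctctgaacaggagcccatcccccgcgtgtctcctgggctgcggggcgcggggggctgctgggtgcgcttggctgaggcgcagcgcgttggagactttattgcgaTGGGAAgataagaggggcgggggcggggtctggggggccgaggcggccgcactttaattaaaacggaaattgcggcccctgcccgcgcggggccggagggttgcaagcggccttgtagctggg
Nkx6-2: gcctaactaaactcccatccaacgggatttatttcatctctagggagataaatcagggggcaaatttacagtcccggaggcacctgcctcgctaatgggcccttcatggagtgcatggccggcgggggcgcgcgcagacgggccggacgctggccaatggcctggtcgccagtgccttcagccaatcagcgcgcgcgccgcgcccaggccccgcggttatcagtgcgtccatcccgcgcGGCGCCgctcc
Id4: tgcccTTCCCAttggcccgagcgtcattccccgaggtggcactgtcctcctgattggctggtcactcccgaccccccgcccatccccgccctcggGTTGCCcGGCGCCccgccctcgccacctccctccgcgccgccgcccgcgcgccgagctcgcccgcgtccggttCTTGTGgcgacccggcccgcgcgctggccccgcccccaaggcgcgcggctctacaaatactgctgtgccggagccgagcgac
Id3: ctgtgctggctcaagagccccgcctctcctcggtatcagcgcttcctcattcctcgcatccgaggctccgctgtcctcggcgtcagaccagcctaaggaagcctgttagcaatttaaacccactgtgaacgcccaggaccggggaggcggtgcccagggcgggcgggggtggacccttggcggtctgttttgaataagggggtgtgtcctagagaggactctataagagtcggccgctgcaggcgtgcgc

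Prox1 held 5 matches, Id4 4, Rfx6, Fev and Nkx6-2 1 each and Id3 none. The first-listed promoter was searched for 22 of the 30 measured members, of which 12 were higher, 2 lower and 8 neither. TGGGAA was found in 3 of the 12 (Fev, Lmx1a and Id4) and in 21.0% of promoters of all measured genes. CACNAG was in 4 of 12 against 35.4%, CAGATG in 2 of 12 against 10.2%, GTTGCC in 2 of 12 against 10.6% and GGCGCC in 4 of 12 against 16.2%. The 12 promoters had a median GC content of 65.0% and 19.5 CpG, beside 59.6% and 15.0 CpG over all measured genes. Of the 8 with no call, 4 held CACNAG and 3 GGCGCC, and of the 2 lower genes Hhex held GGCGCC. A match is a string of letters only. Insm1, St18, Lhx5, Hes1, Id1, Hey1, Nkx6-3 and Onecut2 were not among the promoters used.

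The zinc finger factors had a median log2 ratio of 7.80, the highest of the 8 families, and all 3 that were measured stood above 100-fold. Insm1 (ENSMUSG00000068154), a repressor needed for endocrine maturation, had 4057 counts in the CFP+ library and 48 in the CFP-depleted library. That is 333 CPM in the CFP+ library, against 1.07 CPM in the CFP-depleted library, or 312-fold [235 to 423] higher. By ratio it stood at rank 74 of the 16682 measured genes. St18 (ENSMUSG00000033740), a neural zinc finger factor of the Myt family, had 6472 counts in the CFP+ library and 133 in the CFP-depleted library. It stood at 531 CPM in the CFP+ library, against 2.96 CPM in the CFP-depleted library, 179-fold [151 to 215] higher. Its relative Myt1, active in neural and islet progenitors, stood at 74.0 CPM in the CFP+ library, against 0.312 CPM in the CFP-depleted library and was 237-fold [141 to 436] higher. The ratio of St18 to Myt1 counts was 7.18 in the CFP+ and 9.50 in the CFP-depleted library, which did not differ beyond counting error. The other 2 members of this family were not measured: Insm2 and Myt1l had 1 count each in the CFP+ library and 0 in the CFP-depleted one.

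Of the 7 paired and LIM homeobox genes 5 were measured, with 4 higher, 0 lower and 1 neither. Lhx5 (ENSMUSG00000029595), a LIM homeobox factor of forebrain development, had 3336 counts in the CFP+ library and 105 in the CFP-depleted library. Its level was 274 CPM in the CFP+ library, against 2.34 CPM in the CFP-depleted library, 117-fold [96.5 to 144] higher. Lmx1b, which with the Ets factor Fev specifies serotonin neurons of the brain, had 223 counts in the CFP+ library and 3 in the CFP-depleted library and a ratio of 274 [92.6 to 1339]. Fev, which belongs to the Rfx, Ets and Maf family here, had 184 (CFP+) against 5 (CFP-depleted) counts and was 136-fold [57.1 to 423] higher. Lmx1a, the close relative of Lmx1b, had only 10 (CFP+) against 2 (CFP-depleted) counts and was 18.4-fold [3.93 to 173] higher. Per kilobase of exon the ratio of Lmx1b to Lmx1a was 15.5 in the CFP+ library, while in the CFP-depleted library both were at 3 counts or fewer. Of the neuron and glia markers, Prph and Sox10 were named after their values were seen, since they were at 0 counts in both libraries. Elavl4, an RNA-binding protein gene of neurons, was 277-fold [107 to 1022] higher, as were Ret (75.1-fold [55.6 to 104]) and Tubb3 (3.46-fold [1.59 to 7.47]).

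The other LIM and paired factors were divided. Isl1, a factor of islet and gut endocrine cells, stood at 12.1 CPM in the CFP+ library, against 12.4 CPM in the CFP-depleted library, a ratio of 0.970 [0.803 to 1.16] that turned above 1 when libraries were scaled by total count, with or without the most abundant genes. With trimmed-mean factors a difference in Isl1 was not detectable, and both libraries held it on over 100 counts. This depends on the scaling, since its log2 ratio was -0.04 with these factors and 0.32 by total count. Pax6, a paired factor of islet cells and of the eye, had 41 counts in the CFP+ library and 5 in the CFP-depleted library. At 3.37 CPM (CFP+) against 0.111 CPM (CFP-depleted) it was 30.2-fold [12.0 to 98.0] higher. Pax4 and Isl2 had 0 counts in both libraries.

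Prox1, which acts in lymphatic vessels, liver, pancreas and gut endocrine cells, had 1589 counts in the CFP+ library and 41 in the CFP-depleted library and was 143-fold [105 to 199.9] higher. Among Onecut factors, which act in liver and pancreas and in neurons, Onecut2 stood at 9.03 CPM in the CFP+ library, against 2.03 CPM in the CFP-depleted library and was 4.46-fold [3.35 to 5.95] higher. Onecut1, with 1 (CFP+) against 2 (CFP-depleted) counts, and Onecut3, with 1 (CFP+) against 5 (CFP-depleted) counts, were not measured. Per kilobase of exon the ratio of Prox1 to Isl1 was 5.10 in the CFP+ library and 0.0346 in the CFP-depleted one, so their order was turned round. In counts this ratio was 10.8 in the CFP+ library and 0.0733 in the CFP-depleted library, a 147-fold difference [102 to 216].

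Nkx factors differed among themselves in both level and ratio. Nkx6-2 (ENSMUSG00000041309), a homeobox repressor known from oligodendrocytes, had 3664 counts in the CFP+ library and 559 in the CFP-depleted library. It stood at 301 CPM in the CFP+ library, against 12.4 CPM in the CFP-depleted library and was 24.2-fold [22.1 to 26.5] higher. Its exons overlap those of Inpp5a on the opposite strand over 12.9% of their length in GENCODE M21, and the strand setting of the counting is not given. Inpp5a went the other way, at 85.2 CPM in the CFP+ and 130.8 CPM in the CFP-depleted library. Nkx6-3, a factor of gastrin and somatostatin cells of the distal stomach, stood at 17.7 CPM in the CFP+ library, against 6.26 CPM in the CFP-depleted library and was 2.82-fold [2.35 to 3.38] higher. Nkx6-1, the beta cell member, had 1 count in the CFP+ library and 0 in the CFP-depleted one. Nkx2-2, needed for several islet and gut endocrine types, had 10 (CFP+) against 2 (CFP-depleted) counts and was 18.4-fold [3.93 to 173] higher, and its overlap with the antisense gene Nkx2-2os covers 9.67% of its exons. Within the Nkx6 family, per kilobase of exon, Nkx6-2 took 95.2% of the sum in the CFP+ library and 70.0% in the CFP-depleted library. The ratio of Nkx6-2 to Nkx6-3 counts was 17.0 in the CFP+ library and 1.99 in the CFP-depleted library, an 8.57-fold difference [6.99 to 10.5].

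The last endocrine family held Rfx, Ets and Maf factors. Rfx6, a winged-helix factor needed for islet development, had 1278 counts in the CFP+ library and 44 in the CFP-depleted library, or 107-fold [79.3 to 148] more in the CFP+ library. Rfx3, a factor of cilia genes and of islets, stood at 70.7 CPM (CFP+) against 6.57 CPM (CFP-depleted) and was 10.8-fold [9.42 to 12.3] higher. The ratio of Rfx6 to Rfx3 counts was 1.48 in the CFP+ library and 0.149 in the CFP-depleted library, a 9.95-fold difference [7.13 to 14.1]. Among the 6 other Rfx genes, 4 were measured: Rfx2 was 3.67-fold [3.16 to 4.25] and Rfx5 2.72-fold [2.39 to 3.10] higher, while Rfx7 and Rfx1 had ratios of 1.26 [1.15 to 1.37] and 0.851 [0.756 to 0.955]. Mafa, a beta cell factor, had 0 counts in both libraries. Etv1, an Ets factor of interstitial cells of Cajal, had 32 (CFP+) against 82 (CFP-depleted) counts and a ratio of 1.44 [0.925 to 2.19], an interval that holds 1.

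**Figure D2:**
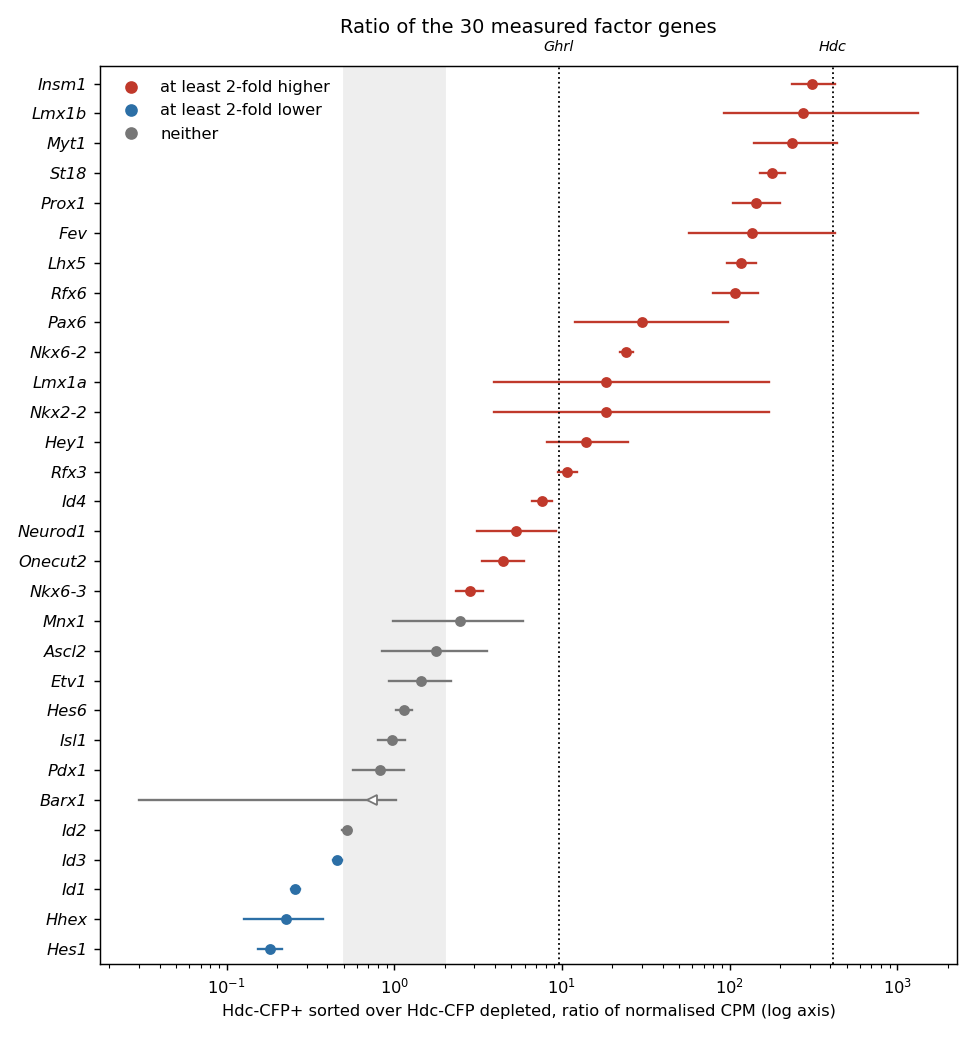
Ratio of normalised CPM, Hdc-CFP+ sorted over Hdc-CFP depleted (log axis), for the 30 measured genes with exact 95% intervals for counting error. The shaded band spans less than 2-fold, dotted lines mark Hdc and Ghrl, and the open triangle is Barx1 with 3 counts in place of 0 in the sorted library, whose interval runs from 0 to above 1 and is drawn only in part. Insm1, Lmx1b, Myt1 and Fev have intervals that reach the Hdc line, and Rfx3 lies near Ghrl.

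The ratios can be read beside those of Hdc and of hormone genes of other endocrine cells. The intervals of Insm1, Lmx1b, Myt1 and Fev overlapped that of Hdc, at 413 [388 to 441]. Those of St18, Prox1, Lhx5 and Rfx6 lay below it. Rfx3, at 10.8 [9.42 to 12.3], Neurod1, at 5.31 [3.10 to 9.23], and Id4, at 7.63 [6.66 to 8.76], stood near or below Ghrl and Sst, at 9.55 [9.39 to 9.70] and 8.17 [7.86 to 8.48]. Nkx6-2 lay between these groups, at 24.2 [22.1 to 26.5]. Of the other hormone-cell markers, Tph1, which makes serotonin, had a ratio of 13.5 [10.6 to 17.3] and Gcg, the glucagon gene, one of 47.2 [36.1 to 62.7]. Pyy, the peptide YY gene, named after its value was seen, had 118 counts in the CFP+ library and 1 in the CFP-depleted library, a ratio of 435 [76.6 to 17330.4] whose interval also holds that of Hdc. Ratios for Lmx1b, Nkx2-2, Lmx1a, Pax6 and Fev rest on 5 counts or fewer in the CFP-depleted library, as their wide intervals show.

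Proneural bHLH genes, which start endocrine and secretory differentiation, were low in both libraries. Neurog3 had 1 count in the CFP+ library and 3 in the CFP-depleted library and was not measured. Its exons overlap Fam241b on the opposite strand. Neurod1, the next factor in the islet and gut endocrine cascade, had 36 (CFP+) against 25 (CFP-depleted) counts. At 2.96 CPM (CFP+) against 0.557 CPM (CFP-depleted) it was 5.31-fold [3.10 to 9.23] higher. Per kilobase of exon Neurod1 stood at 1.08 CPM in the CFP+ library, where Insm1 stood at 107. The ratio of Neurod1 to Insm1 counts was 0.00887 in the CFP+ library and 0.521 in the CFP-depleted library, and the quotient of these ratios was 0.0170 [0.00918 to 0.0322]. Ascl2, a factor of intestinal stem cells, had 13 (CFP+) against 27 (CFP-depleted) counts and a ratio of 1.78 [0.841 to 3.56]. Atoh1, which specifies secretory cells of the intestine, had 0 counts in the CFP+ and 2 in the CFP-depleted library, and Neurod2, a neuronal factor, had 0 in both. Neurod1 shares 13.0% of its exon bases with other M21 genes, Cerkl among them, and 9.66% of its 50-base words with other transcripts, and such reads may be missing from its count.

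Levels between genes can be compared only per kilobase of exon. On that scale the most abundant of the 44 in the CFP+ library were Nkx6-2 (158 CPM per kb), Insm1 (107), Lhx5 (102), St18 (82.2) and Id1 (65.6). These stood at ranks 111, 173, 185, 254 and 360 of 20194 protein-coding genes. Id3 (45.1), Id2 (35.9), Rfx6 (26.2), Hes6 (19.7) and Prox1 (15.6) came next. Neurod1 (1.08), Pax6 (0.288), Nkx2-2 (0.286) and Lmx1a (0.242 CPM per kb) were far lower in the same library. In the CFP-depleted library the order was Id1 (254), Id3 (98.3), Id2 (69.1), Hes1 (35.2) and Hes6 (17.3 CPM per kb). The exon lengths come from a later annotation than the counts, and values without replicates do not show which neighbours in these orders differ.

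**Figure D3:**
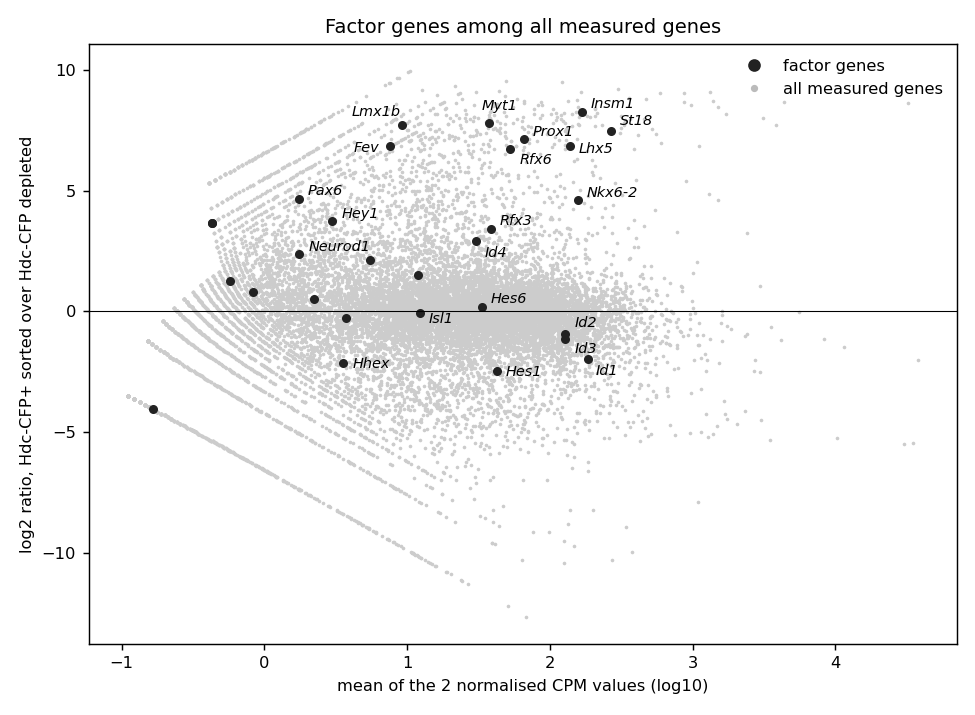
Log2 ratio, Hdc-CFP+ sorted over Hdc-CFP depleted, against the mean normalised CPM of the libraries (log10) for all 16682 measured genes (grey) and the 30 measured factor genes (black), after adding 0.5 counts scaled to library size. Insm1, St18 and Lhx5 lie above 6 on the log2 scale, and Id1, Id2, Id3 and Hes1 lie below 0.

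Id genes, whose products bind and disable E proteins, went in both directions. Id1 stood at 76.0 CPM in the CFP+ library, against 295 CPM in the CFP-depleted library, 3.88-fold [3.63 to 4.15] lower. Id3, at 80.7 CPM (CFP+) against 176 CPM (CFP-depleted), was 2.18-fold [2.04 to 2.33] lower. Id2, at 87.5 CPM (CFP+) against 168 CPM (CFP-depleted), was 1.93-fold [1.81 to 2.05] lower and missed the 2-fold rule. Id4, which also acts in neural precursors, was the exception, with 650 counts in the CFP+ library and 314 in the CFP-depleted library, and was 7.63-fold [6.66 to 8.76] higher. The direction of all 4 held under each scaling tried. Id3 lost its call when libraries were scaled by total count, with or without the most abundant genes. Within a library no scaling enters, and the ratio of Id4 to Id1 counts was 0.702 in the CFP+ library and 0.0237 in the CFP-depleted library, a 29.6-fold difference [25.4 to 34.5]. The Id4 to Id3 ratio was 0.661 in the CFP+ library and 0.0397 in the CFP-depleted library, a 16.6-fold difference [14.3 to 19.4]. Per kilobase of exon Id4 made up 8.65% of the Id sum in the CFP+ and 0.429% in the CFP-depleted library, and Id1 40.9% in the CFP+ and 60.1% in the CFP-depleted library.

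The E proteins that Id proteins bind were measured in full. Tcf12 and Tcf3 had ratios of 1.04 [0.978 to 1.12] and 1.14 [1.04 to 1.26], while Tcf4 was 5.77-fold [5.06 to 6.62] lower at 18.9 CPM (CFP+) against 109 CPM (CFP-depleted).

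Hes and Hey genes, most of which carry the Notch signal as repressors of proneural genes, were divided too. Hes1 (ENSMUSG00000022528), the main such repressor in the gut, had 159 counts in the CFP+ library and 3217 in the CFP-depleted library. It stood at 13.1 CPM in the CFP+ library, against 71.6 CPM in the CFP-depleted library, 5.49-fold [4.68 to 6.48] lower, the furthest in that direction of the measured members with counts in both libraries. Hes6, which counters Hes1, had 35.6 CPM (CFP+) against 31.2 CPM (CFP-depleted) and a ratio of 1.14 [1.02 to 1.27], short of 2-fold. Hey1, a repressor best known from vessels, had 68 (CFP+) against 18 (CFP-depleted) counts and was 13.9-fold [8.19 to 24.9] higher. Hes5, a Notch target of neural precursors, had 1 count in the CFP+ library and 0 in the CFP-depleted one. The ratio of Hes6 to Hes1 counts was 2.73 in the CFP+ library and 0.436 in the CFP-depleted library, a 6.26-fold difference [5.15 to 7.64], and Hes6 took 70.7% of the family sum per kilobase in the CFP+ and 32.9% in the CFP-depleted library. Markers of macrophages and of surface mucous, parietal, chief and neck cells were lower in the CFP+ library together with Hes1, Id1, Id3 and Tcf4, and their part in these differences was not tested.

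**Figure D4:**
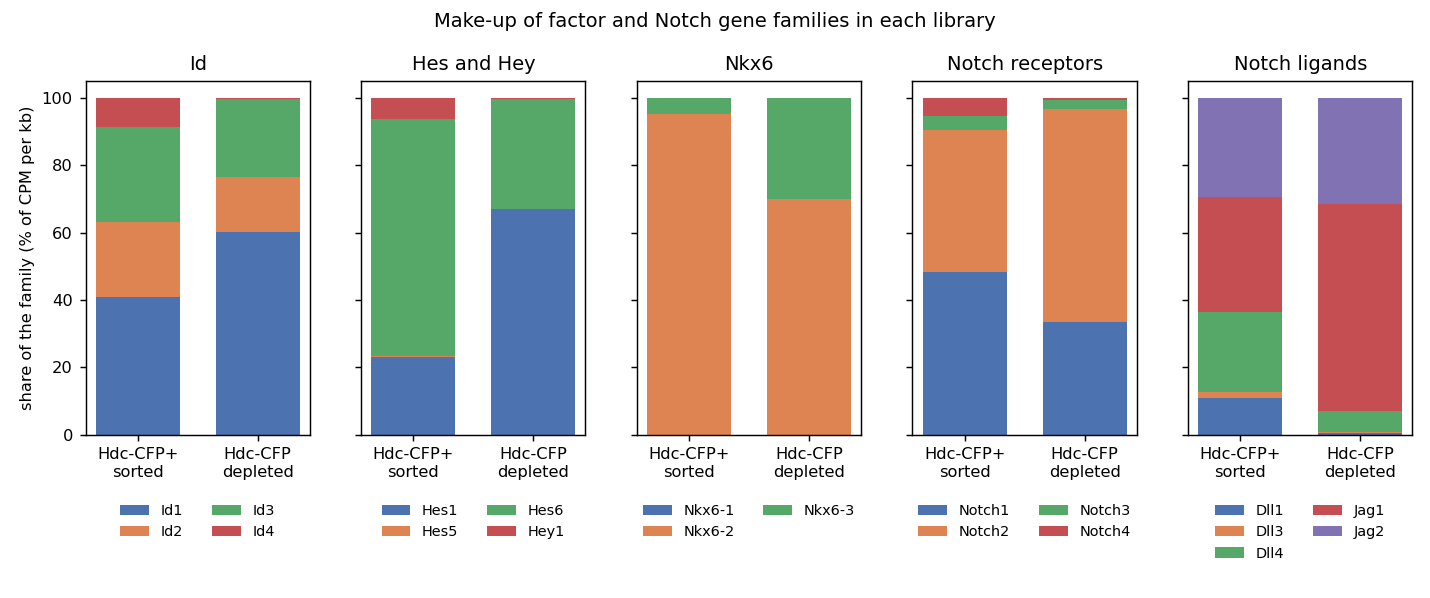
Share of each family's summed CPM per kilobase of exon taken by each gene, in the Hdc-CFP+ sorted (left bar) and Hdc-CFP depleted library (right bar). Id4, Hes6, Hey1 and Nkx6-2 take larger shares in the sorted library, and Jag1 and Notch2 larger shares in the depleted one.

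Genes of the Notch pathway outside the 44 were listed for comparison. Of 40 listed genes 37 were measured: 8 were higher, 9 lower and 20 neither, with a median log2 ratio of -0.05. These shares are near those of all measured genes. The 4 most abundant were Adam10, the protease that cuts Notch at the surface, 3.55-fold [3.35 to 3.76] lower; Neurl1a, a ubiquitin ligase of Notch ligands, 41.6-fold [37.0 to 46.9] higher; Mib1, a second such ligase, at a ratio of 1.60 [1.52 to 1.68]; and Ncstn, a gamma-secretase subunit, at 0.963 [0.912 to 1.02]. The receptors, the ligands and Rbpj are named beyond these 4 and were chosen after their values were seen. Of the receptors Notch1, Notch2 and Notch3 were 3.34-fold [2.94 to 3.82], 7.29-fold [6.24 to 8.58] and 3.39-fold [1.88 to 6.71] lower, while Notch4, on 16 (CFP+) against 26 (CFP-depleted) counts, was 2.27-fold [1.14 to 4.39] higher. Of the ligands Jag1 and Jag2 were 3.52-fold [3.05 to 4.08] and 2.09-fold [1.81 to 2.43] lower. Dll1, on 46 (CFP+) against 18 (CFP-depleted) counts, was 9.42-fold [5.36 to 17.3] higher, Dll4 had a ratio of 1.91 [1.47 to 2.46], and Dll3 was not measured. Receptors and ligands summed to fewer CPM in the CFP+ library: 36.2 (CFP+) against 171 (CFP-depleted) CPM for receptors, and 45.5 (CFP+) against 98.6 (CFP-depleted) CPM for ligands. Rbpj, through which all receptors act, had a ratio of 0.965 [0.804 to 1.15].

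Further pathway members, also chosen then, went in both directions. Nrarp, a feedback target of Notch, was 15.4-fold [9.41 to 27.0] lower on 16 (CFP+) against 907 (CFP-depleted) counts. Heyl was 51.6-fold [13.0 to 447] higher on 28 (CFP+) against 2 (CFP-depleted) counts. Dtx1 and Dlk1, a modulator and a non-canonical ligand, were 33.6-fold [16.2 to 80.9] and 33.7-fold [19.7 to 61.8] higher.

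Other factors with a role in endocrine cells went in both directions. Of 25 listed endocrine factors 16 were measured, with 6 higher and 2 lower and a median log2 ratio of 0.51. By level the leading ones were Hnf4a (ratio 0.559 [0.532 to 0.588]), Foxa1 (1.38 [1.32 to 1.44]), Prdm16, 3.01-fold [2.73 to 3.33] lower, and Foxa2 (1.42 [1.33 to 1.52]).

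Patterning genes had few counts or differed by less than the rule in most cases. Pdx1, which marks antrum, duodenum and pancreas, had 41 counts in the CFP+ library and 185 in the CFP-depleted library, with a ratio of 0.817 [0.568 to 1.15] that turned above 1 under total-count scaling. The intestinal factors Cdx1, with 1 (CFP+) against 6 (CFP-depleted) counts, and Cdx2, with 3 (CFP+) against 5 (CFP-depleted) counts, were not measured. Intestinal epithelial markers were present, with 1 of 8 higher and 6 lower and sums of 255 CPM in the CFP+ and 869 CPM in the CFP-depleted library. Mnx1, a factor of motor neurons and pancreas, had 10 (CFP+) against 15 (CFP-depleted) counts and a ratio of 2.46 [0.988 to 5.85]. Hhex, a foregut and liver factor also used by somatostatin cells of islets, had 16 (CFP+) against 261 (CFP-depleted) counts and was 4.42-fold [2.67 to 7.85] lower. Barx1, a factor of stomach mesenchyme, had 0 counts in the CFP+ and 15 in the CFP-depleted library. The interval of its ratio reaches 1, and it was not called. Of 22 further foregut patterning genes 15 were measured, with 3 higher and 6 lower. The leading ones were Gata4, 3.71-fold [3.54 to 3.88] lower, Gata6, 2.58-fold [2.41 to 2.77] lower, and Nr2f2, at a ratio of 0.622 [0.578 to 0.669]. Sox2, a factor of foregut epithelium named after its value was seen, had a ratio of 1.05 [0.887 to 1.24].

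The last list held REST, the repressor of neuronal and endocrine genes outside those cells, and its partners. Of 9 measured genes 1 was higher and 1 lower. Rcor1, Zmym2, Kdm1a and Hdac2, the most abundant, had ratios of 0.534 [0.501 to 0.569], 1.51 [1.42 to 1.61], 1.85 [1.72 to 1.98] and 1.21 [1.13 to 1.31], none past 2-fold. The lower gene was Rest itself, named after its value was seen, at 2.96 CPM in the CFP+ library, against 29.0 CPM in the CFP-depleted library, 9.79-fold [7.04 to 14.0] lower. The higher one was Rcor2, also named then, 2.34-fold [1.51 to 3.56] higher on 38 (CFP+) against 60 (CFP-depleted) counts.

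**Figure D5:**
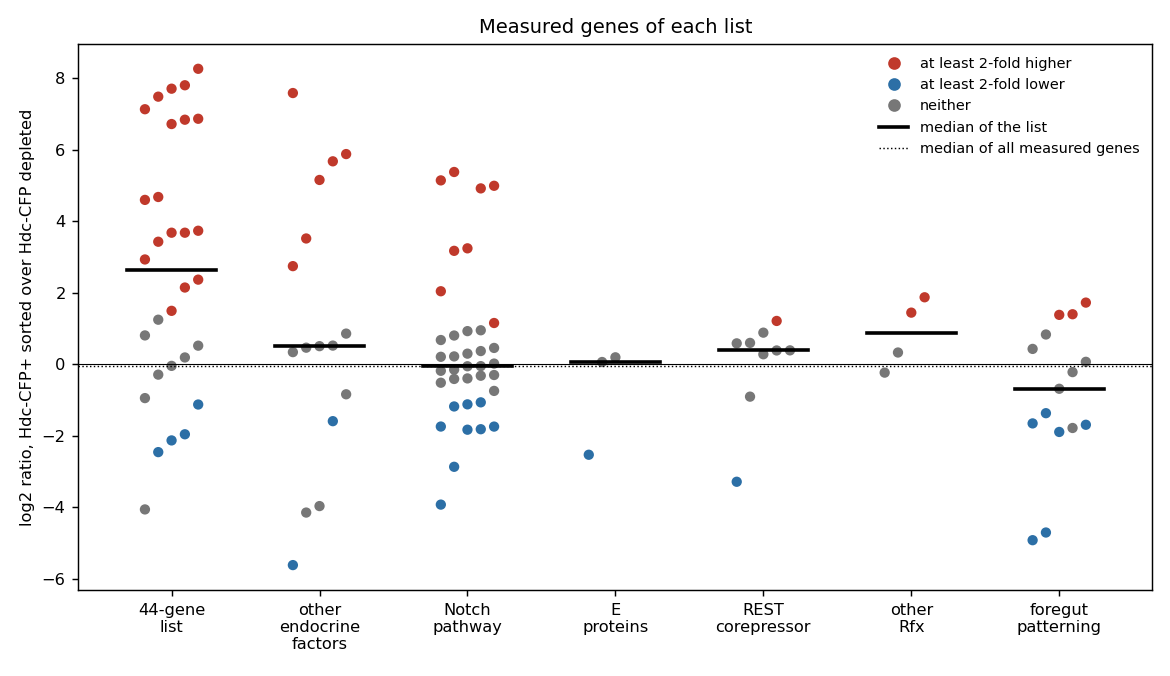
Log2 ratio, Hdc-CFP+ sorted over Hdc-CFP depleted, of each measured gene in the list of 44 and in the 6 comparison lists. Bars are list medians, the dotted line is the median of all measured genes, and genes with a count of 0 are drawn with the added 0.5. The median of the 44-gene list is 2.65, and those of the other lists lie between -0.68 and 0.89.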

How the data were processed

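The labels' protocols name an RNeasy kit for RNA and a TruSeq kit for libraries. Alignment used TopHat2 2.0.07 with mm9 and counting used HTSeq, per the submitters' processing notes. The authors deposited raw counts for each Ensembl gene, in 1 file per library. No source used here states the version, strand option or annotation of HTSeq. Library sizes exclude the 5 summary rows. These put ambiguous reads at 1.45% (sorted) and 1.11% (depleted) and non-unique alignments at 24.2% (sorted) and 34.3% (depleted), so genes that overlap or have near-identical copies lose reads.

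Symbols came from GENCODE M21 by identifier, for 32642 of 37681. TMM factors (edgeR 4.0.16, R 4.3.3) over measured genes were 1.13 (sorted) and 0.882 (depleted). Ratios carry Clopper-Pearson intervals, levels Poisson intervals and within-library ratios conditional exact intervals. Calls and intervals were tried on simulated counts with counting error only and known library sizes. That trial could not test the scaling or the variation between samples. For a call, 3 counts stood in for a count of 0. Exon length is the union of M21 exons. Promoters came from RefSeq and matched 32 of the 44 genes. The alternatives were other scalings, DESeq2 1.42.0 size factors included, other count minimums and a 4-fold rule. The members and lists were chosen with earlier results of these data known. All members are reported, and up to 4 genes per list were named by level. Other list genes, markers at 0 counts included, were chosen after their values were seen. The values of some genes that this rule names are not reported here.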

Additional observations from a re-analysis of the deposited data

How the results depend on the processing

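No paired analysis was possible because each group had 1 library, and for the same reason no replicate could be left out. Scaling by total count without a factor multiplied every ratio by 1.29 and moved the median log2 ratio of all measured genes by 0.36, to 0.31. Totals without the 20 most abundant genes moved that median by 0.21, upper-quartile factors and DESeq2 size factors by less than 0.1, and TMM over all genes, an alternative chosen after seeing the data, by -0.11. Over these scalings 18 to 20 members were higher and 3 to 5 lower. Mnx1 and Ascl2 gained a call, Id3 lost its own and Id2 gained one, while Isl1 and Pdx1, which had no call, changed direction. In the list of REST and its partners, 2 genes were higher under both total-based scalings, and 2, Rest among them, were lower under TMM over all genes. At 4-fold with the interval beyond 2-fold, 2272 of all measured genes were higher and 1880 lower, and among members 17 were higher and 2 lower, without Nkx6-3, Id1 and Id3. A minimum of 30 counts left 25 members measured, without Nkx2-2 and Lmx1a among the higher ones. No value with a call reversed under any of these settings. Depth limits the members with few counts: at 10 counts a ratio such as that of Nkx2-2 has an interval from 3.93 to 173.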

Other observations

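The genes next to the 30 measured members on the chromosome, by the order of protein-coding genes in RefSeq on GRCm38.p6, were looked at after the members' values were known. Beside members that were higher in the CFP+ library, 29 neighbours were measured, of which 15 were higher and 2 lower, with 21.9% in each direction over all measured genes. Beside members that were lower, 6 were measured, with 0 higher and 3 lower. Beside members with no call, 13 were measured, with 7 higher and 1 lower.

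Fev stood in a run of high genes. On its sides lie Cdk5r2, an activator of the kinase Cdk5 in neurons, with 509 counts in the CFP+ library and 7 in the CFP-depleted library, and Cryba2, a crystallin gene, with 110 counts in the CFP+ library and 3 in the CFP-depleted library. Their ratios were 268-fold [129 to 670.3] and 135-fold [45.1 to 666] higher in the CFP+ library. Next to Onecut2 lies St8sia3, a sialyltransferase gene of neural tissue, 187-fold [106 to 364] higher. Next to Ascl2, which had no call, lies Th, the tyrosine hydroxylase gene of catecholamine synthesis, with 220 counts in the CFP+ library and 2 in the CFP-depleted library, a ratio of 406-fold [111 to 3370.4] higher. Not every neighbour of a higher member was itself called higher. Insm1 lies between Cfap61, 29.5-fold [6.94 to 264] higher, and Ralgapa2, at a ratio of 0.502 [0.468 to 0.538], which had no call. Neurod1 lies between Cerkl, at 0.598 [0.206 to 1.43], an interval that holds 1, and Itprid2, at 0.223 [0.209 to 0.238]. These genes were singled out after their values were seen.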
